A study of Mus musculus with 8 samples.

Results

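The amino acid transporters measured here are the genes of 7 solute carrier families whose best-known members move amino acids across membranes: Slc1, Slc3, Slc6, Slc7, Slc36, Slc38 and Slc43. They were taken by symbol, with the 2 genes Slc7a11 and Slc6a8 left out, which gave 64 of the 24537 genes in the count table. This choice was made with earlier results of these data known. RNA came from EpCAM+ cells sorted by flow cytometry from whole pancreatic tumours of FVB/NJ mice that carry Tp53f/f, Rosa26LSL-Luc and Pdx1-Cre, so that recombination follows the Pdx1 promoter in the pancreatic epithelium. Treatment began at 42 to 43 days of age and ended at about 48 days. Gemcitabine was given to every mouse (50 mg/kg, days 1 and 4), so no arm went without the drug. One arm also received control IgG and the other an antibody against LIF (leukaemia inhibitory factor, a cytokine of the interleukin-6 family), at 25 mg/kg on days 1, 3 and 5, and tumours were taken on day 6. Each arm had 4 mice with 1 library each, and values below are listed in the order of the mouse numbers. For IgG these are KPCL-PCC_203_G first, then KPCL-PCC_343_G, next KPCL-PCC_345_G, and last KPCL-PCC_393_G. For anti-LIF they are KPCL-PCC_227_GA first, then KPCL-PCC_310_GA, next KPCL-PCC_354_GA, and last KPCL-PCC_391_GA. The p-values therefore measure the spread between mice.

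Amino acids cannot cross the membrane unaided, and each carrier takes a restricted group of them. Heterodimeric carriers pair a heavy chain, Slc3a2 (4F2hc, CD98) or Slc3a1 (rBAT), with a light chain of the Slc7 family that does the transport, and many of them are exchangers that trade one amino acid for another. Sodium-coupled carriers of the Slc1, Slc6 and Slc38 families load the cell with the amino acids that exchangers then trade, and carriers in the lysosome link the amino acids stored there to the growth kinase complex mTORC1. In pancreatic tumours these carriers are studied because the cells draw amino acids from a nutrient-poor stroma.

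Counts assigned to genes ran from 15135457 to 18972281 per library. The labelled cell type was looked at first, through marker lists chosen with earlier results of these data known, so this is a description and not an independent check. The 20 epithelial markers, Epcam and keratins among them and none at 0, held 0.664% to 0.806% of counts in the IgG libraries and 0.207% to 0.411% in the anti-LIF libraries, and 16 of the 20 fell by edgeR's quasi-likelihood test. The 20 myeloid markers, none at 0, held 1.99% to 2.52% and 3.52% to 5.07%, and 15 of 20 rose. The 19 acinar markers found in the table held 0.0429% to 0.218% and 0.309% to 1.57%, and 16 of 19 rose. Of all 14711 tested genes, 15.7% rose and 16.5% fell by the same test. Anti-LIF library KPCL-PCC_227_GA had the lowest epithelial and the highest myeloid share. Endothelial (0.00566% to 0.00843% against 0.0102% to 0.0127%) and lymphoid markers (0.000696% to 0.00190% against 0.00223% to 0.00451%, with Ncr1 at 0) also held a larger summed share in every anti-LIF library, while the ranges of fibroblast, islet and neural markers overlapped. The endothelial sum was carried by few genes: 8 of the 10 had log2 fold changes below 0 (median −0.31), 1 was called higher (Eng) and 1 lower (Cldn5). In such bulk samples, fewer cells of a type and less RNA per cell cannot be told apart. The part of these shifts in the transporter results below was not tested.

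Most of the family was detected, at levels that spanned several orders of magnitude. At least 1 read was counted in all 8 libraries for 42 of the 64 members, in 1 to 7 libraries for 19, and in none for 3: Slc6a5 and Slc7a12 and the opposite-strand symbol Slc6a19os. A read total of 0 over the 4 libraries of an arm allows up to 3 counts, which covers counting error only. Levels between genes were compared as FPKM, in which reads are divided by the length of the transcript and the size of the library. Of the members, 27 had a mean above 1 FPKM and 16 above 10 FPKM, and the 10 highest held 75.1% of the FPKM summed over members. Together the members took 0.308% to 0.354% of counts in the IgG libraries and 0.273% to 0.319% in the anti-LIF libraries, ranges that overlapped. The symbol rule also took in 3 opposite-strand symbols (Slc36a1os, Slc6a19os and Slc7a6os), whose names do not denote carriers; of these Slc7a6os was well expressed at 16.0 FPKM and its log2 fold change was −0.06 (adjusted p = 0.593).

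**Figure D1:**
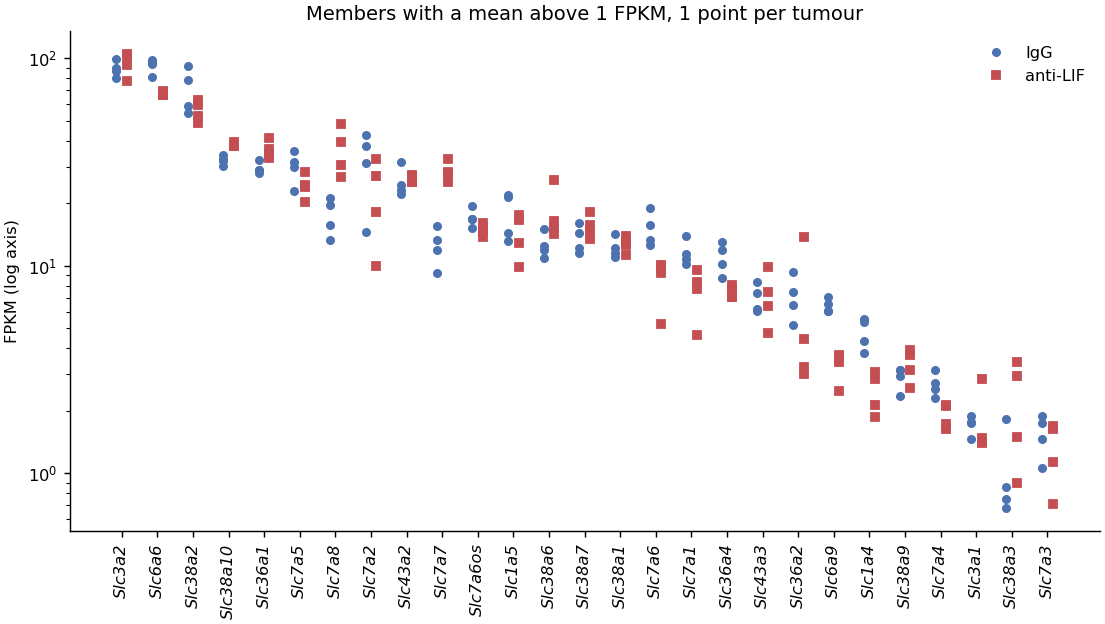
FPKM (log axis) of the 27 members with a mean above 1 FPKM, ordered by mean, with 1 point for each of the 4 IgG (blue circles) and 4 anti-LIF tumours (red squares). Slc3a2, Slc6a6 and Slc38a2 lead. On this scale the arms separate for, among others, Slc7a7, Slc7a8 and Slc38a10 (anti-LIF above IgG). They also separate for Slc6a9, Slc1a4 and Slc6a6 (anti-LIF below IgG), although those of Slc6a6 overlap as CPM, as described below.

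The 3 highest members were Slc3a2, the common heavy chain (91.6 FPKM), Slc6a6, the taurine carrier (79.8 FPKM), and Slc38a2, a carrier of small neutral amino acids including glutamine (63.3 FPKM). Slc38a10 (35.2 FPKM) and Slc36a1 (32.9 FPKM) followed, and then 4 members within 25.8 to 27.1 FPKM. These 4 were the leucine carrier Slc7a5, its relative Slc7a8, the cationic amino acid carrier Slc7a2 and the neutral amino acid carrier Slc43a2, and their spread over the tumours overlapped. Slc7a7 closed the leading 10 at 20.5 FPKM.

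The antibody comparison asks which of these carriers differ when LIF is blocked during gemcitabine treatment. Of the 64 members, 38 passed the filter on low counts and were tested, and 26 were not. Among the 38, edgeR's quasi-likelihood test called 4 higher and 4 lower with anti-LIF at an adjusted p under 0.05, which is 8 of 38 (21.1%), and 13 of 38 had an unadjusted p under 0.05 (44.8% of all tested genes). Over all 14711 tested genes 32.2% were called, 15.7% higher and 16.5% lower (2303 and 2428 genes), so the members' share lay below that background. Log2 fold changes (anti-LIF minus IgG) were above 0 for 19 members and below 0 for 19, with a median of 0.038 beside −0.0063 over all tested genes. With libraries scaled by their totals alone, the median over all genes shifted by −0.16, the calls were 1430 higher and 3567 lower over all genes and 3 higher and 7 lower among the members, and 17 members lay above 0 and 21 below. On the CPM scale defined below, the arms did not overlap for 8 members, the same 8 that were called. This held for 35.7% of all tested genes. As FPKM, other members separated too, among them Slc6a6 (81.3 to 97.5 with IgG and 66.1 to 69.5 with anti-LIF). The share of all genes that separate as FPKM was not computed. FPKM scales by library totals, and on log2(FPKM + 1) the median over all genes shifted by −0.12. The 8 called members were Slc7a7, Slc7a8, Slc38a10 and Slc36a1, which rose, and Slc6a9, Slc1a4, Slc7a6 and Slc7a1, which fell. Anti-LIF tumour KPCL-PCC_227_GA had the highest value of all 8 tumours for each of the 4 that rose and the lowest for Slc6a9, Slc7a6 and Slc7a1, while tumour KPCL-PCC_310_GA was lowest for Slc1a4.

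**Figure D2:**
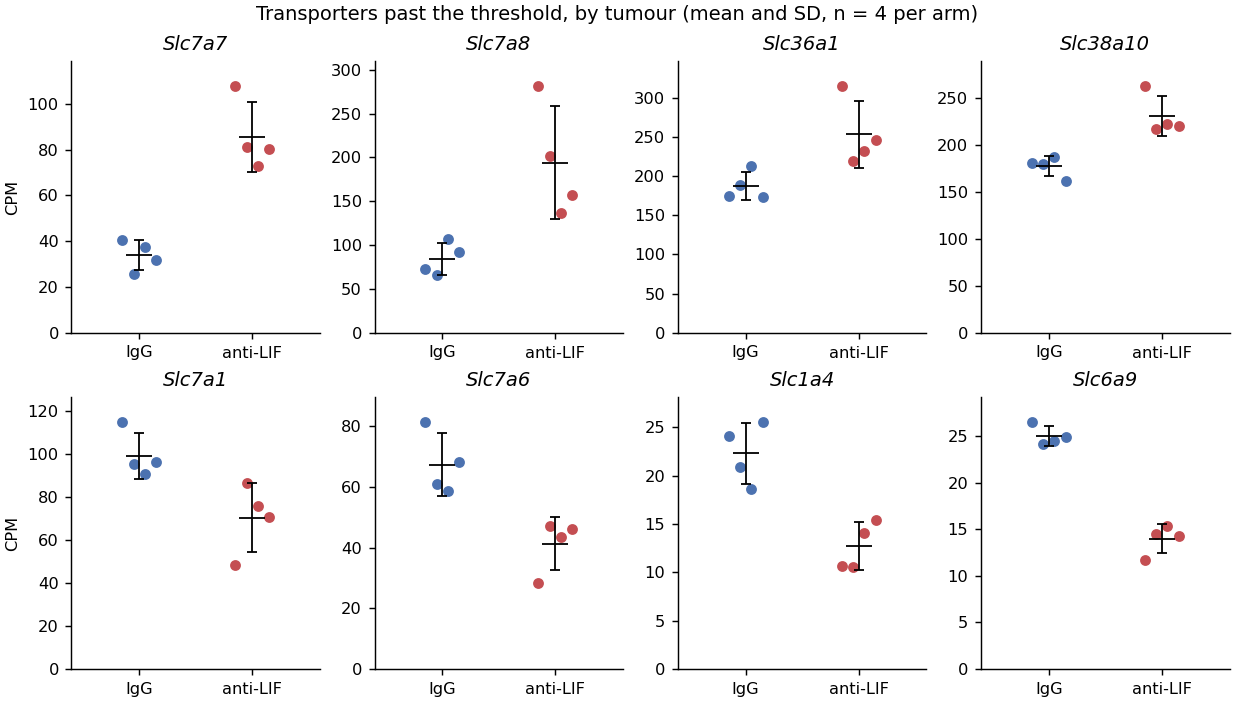
CPM (linear axes from 0) of the 8 called members in each tumour, IgG (blue) beside anti-LIF (red), with a line at the mean and whiskers of 1 SD (n = 4 each). In each panel every anti-LIF tumour lies on one side of every IgG tumour, widely apart for Slc7a7 and Slc6a9 and narrowly for Slc36a1 and Slc7a1.

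The heterodimers were the group with the largest called changes, and they lay in the light chains, in opposite directions. Of 6 tested light chains 2 rose, 1 fell and 3 did not pass the test, and neither heavy chain passed it. Slc7a7 and Slc7a6 are close relatives that both pair with Slc3a2 and export cationic amino acids in exchange for neutral ones and sodium. Slc7a7 rose and Slc7a6 fell.

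Levels of one gene across tumours are given as CPM, read counts scaled to the library's TMM size. Slc7a7 (mm10 chr14:54369442-54417702) was at 40.5, 25.9, 37.5 and 31.7 CPM in the IgG tumours and at 108, 81.3, 72.9 and 80.3 CPM in the anti-LIF tumours. All 4 anti-LIF tumours lay above all 4 IgG tumours, and tumour KPCL-PCC_227_GA was the highest. Means were 33.9 ± 6.47 and 85.6 ± 15.4 CPM (SD, n = 4 each), a 2.53-fold rise (log2 fold change 1.34 ± 0.17 SE, edgeR adjusted p = 0.00301). Its exons overlap those of Oxa1l on the other strand by 232 bases, and the reads of such overlaps cannot be told apart, since no source used here gives the strand setting of the counting. Oxa1l itself had a log2 fold change of 0.28 ± 0.12 (adjusted p = 0.103). Slc7a6 (chr8:106168875-106198704) was at 81.4, 61.0, 58.6 and 68.4 CPM with IgG and at 28.4, 47.2, 43.4 and 46.3 CPM with anti-LIF. Here tumour KPCL-PCC_227_GA was the lowest of all 8, and no anti-LIF tumour reached the lowest IgG value. Its log2 fold change was −0.71 ± 0.17 (adjusted p = 0.0166), from 67.4 ± 10.3 to 41.3 ± 8.79 CPM. Per unit of transcript length, the ratio of Slc7a7 to Slc7a6 was 0.695 to 1.05 in the IgG tumours and 2.75 to 6.24 in the anti-LIF tumours. This ratio was formed after the values had been seen and is given without a test.

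The 250 bases upstream of the annotated starts of these 2 paralogues are shown because they moved in opposite directions, with Slc36a1, a called member that carries another of the motifs searched. The sequences are from RefSeq (GRCm38.p6) and read 5′ to 3′ on the strand of the gene: Slc7a7 from chr14:54417703-54417952 (minus strand), Slc7a6 from chr8:106168604-106168853 (plus strand) and Slc36a1 from chr11:55204090-55204339 (plus strand). Capitals mark matches to the 3 motifs searched.
Slc7a7: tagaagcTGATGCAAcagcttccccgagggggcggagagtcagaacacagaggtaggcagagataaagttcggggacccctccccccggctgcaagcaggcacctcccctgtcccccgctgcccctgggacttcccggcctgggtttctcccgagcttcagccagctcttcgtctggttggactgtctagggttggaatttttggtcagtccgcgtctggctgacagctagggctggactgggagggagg
Slc7a6: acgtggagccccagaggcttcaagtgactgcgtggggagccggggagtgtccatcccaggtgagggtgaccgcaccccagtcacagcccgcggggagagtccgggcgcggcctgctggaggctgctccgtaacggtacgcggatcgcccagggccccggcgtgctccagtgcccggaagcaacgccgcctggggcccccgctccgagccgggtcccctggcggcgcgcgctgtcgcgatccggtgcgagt
Slc36a1: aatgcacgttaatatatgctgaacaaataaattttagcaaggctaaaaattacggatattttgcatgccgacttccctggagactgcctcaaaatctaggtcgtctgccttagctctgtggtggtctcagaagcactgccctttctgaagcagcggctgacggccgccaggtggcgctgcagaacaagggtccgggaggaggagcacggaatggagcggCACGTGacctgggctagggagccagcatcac
The motifs, searched on both strands, were TGATGNAA, the composite element through which ATF4 acts in the amino acid response, TTCNNNGAA, the palindrome bound by STAT factors, which act downstream of LIF, and CACGTG, the E-box bound by TFEB and MYC. The Slc7a7 window held 1 match to TGATGNAA, the Slc7a6 window held no match, and the Slc36a1 window held CACGTG. Of the 64 members, 47 had a promoter in the table, among them 28 of the 38 tested. TGATGNAA was in 1 of the 28 (3.57%) and in 3.45% of all 32851 promoter windows of the same length. TTCNNNGAA was in 2 of 28 (7.14%, against 7.02%), in none of the 8 called members. CACGTG was in 3 of 28 (10.7%, against 6.02%). A match describes letters in this window only.

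Slc7a8, a light chain that exchanges neutral amino acids and also pairs with Slc3a2, had the second largest rise of the called members. It lies on chr14:54722215-54781886, on the same chromosome as Slc7a7. It was at 72.8, 65.9, 106 and 92.3 CPM with IgG and at 282, 202, 136 and 157 CPM with anti-LIF. The arms did not overlap, although the anti-LIF tumours were spread, with KPCL-PCC_227_GA and KPCL-PCC_310_GA above KPCL-PCC_354_GA and KPCL-PCC_391_GA. The rise was 2.30-fold, from 84.4 ± 18.5 to 194 ± 64.3 CPM (log2 fold change 1.20 ± 0.24, adjusted p = 0.00830). Slc7a5, which shares the heavy chain and imports leucine and other large neutral amino acids, was at 128, 128, 156 and 94.6 CPM and 144, 106, 109 and 90.7 CPM. Those ranges overlapped almost wholly (log2 fold change −0.17 ± 0.18, adjusted p = 0.475). The ratio of Slc7a8 to Slc7a5 per unit of length was 0.447 to 0.849 in the IgG tumours and 1.09 to 1.71 in the anti-LIF tumours, again a description without a test.

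Slc3a2, the heavy chain that these light chains share, was at 238, 282, 317 and 262 CPM with IgG and at 380, 339, 253 and 305 CPM with anti-LIF. The arms overlapped, and the log2 fold change of 0.22 ± 0.14 did not pass the test (adjusted p = 0.269). Slc3a1, the heavy chain of kidney and gut, had a log2 fold change of 0.18 ± 0.24 (adjusted p = 0.605), which became −0.10 without anti-LIF library KPCL-PCC_310_GA. Its exons overlap Prepl on the other strand. Per unit of length Slc3a2 exceeded Slc3a1 by 45.8 to 61.3 times in the IgG tumours and by 37.0 to 72.9 times in the anti-LIF tumours.

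Beside these light chain values stand the marker shares given above: myeloid markers were higher in every anti-LIF library, and Slc7a7 and Slc7a6 were at their extremes in library KPCL-PCC_227_GA, which had the highest myeloid share. The part of this in the light chain results was not tested. Without library KPCL-PCC_227_GA, all 8 called members were still called in the same directions. Slc6a6 and Slc36a2 were called lower as well, so that 4 were higher and 6 lower. In that fit 25.6% of tested members and 27.5% of all tested genes were called.

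**Figure D3:**
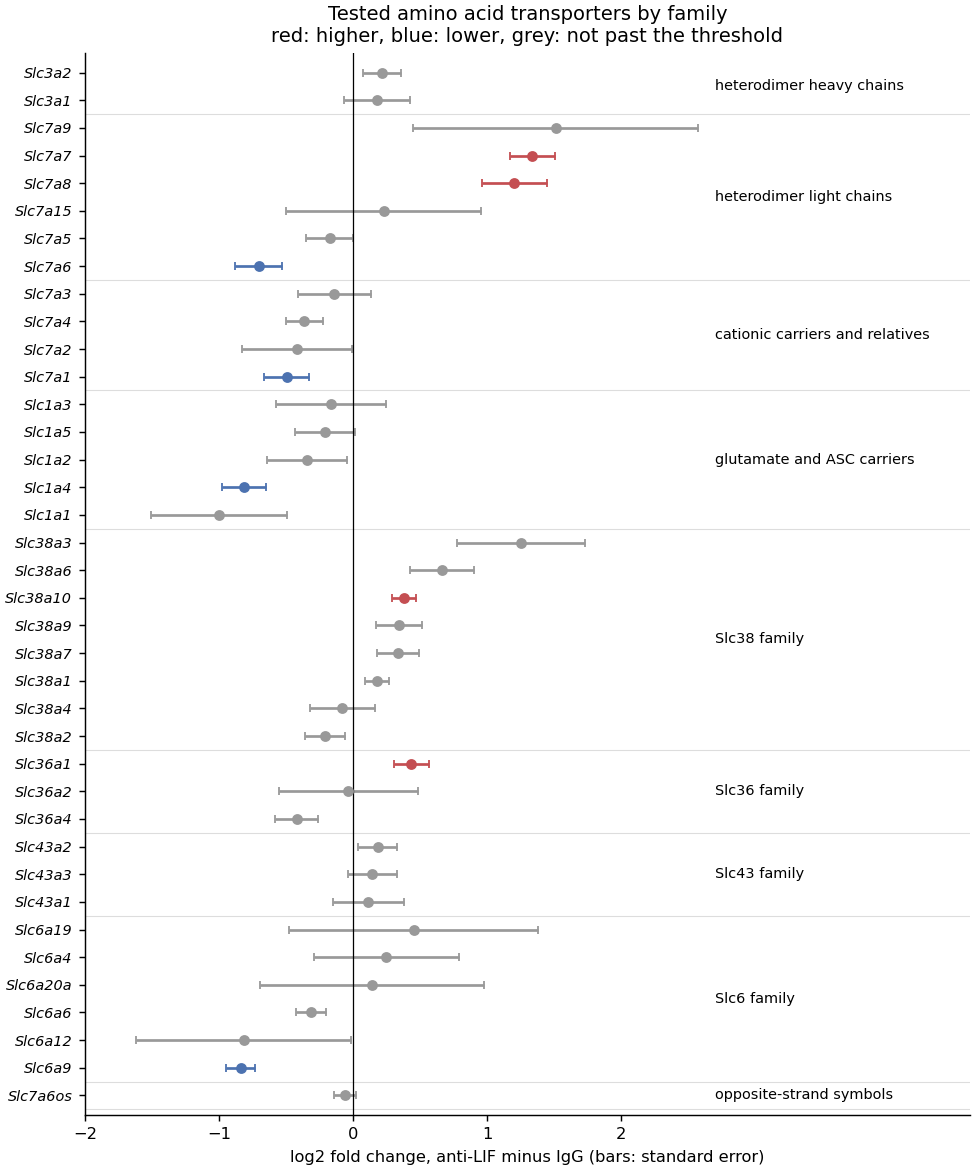
Log2 fold change (anti-LIF minus IgG, with 1 SE on each side) of the 38 tested members, grouped by role, with called members in red (higher) or blue (lower). The light chains hold both the highest called values and a negative one. All 4 cationic carriers and relatives and all 5 carriers of the glutamate and ASC group lie below 0 with all 8 libraries fitted, with 1 of each called.

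The next group holds the cationic carriers, which bring in arginine and lysine without exchange, and their relatives by sequence. Log2 fold changes were below 0 for all 4 tested members of this group (median −0.39), and 1 of the 4 was called. Without anti-LIF library KPCL-PCC_227_GA, Slc7a3 was at 0.034 and the other 3 stayed below 0. Slc7a1, the widely expressed carrier of the group (chr5:148327410-148399904), was at 115, 95.1, 90.7 and 96.0 CPM with IgG and at 48.4, 86.3, 75.7 and 70.9 CPM with anti-LIF. The gap between the arms was narrow, with IgG tumour KPCL-PCC_345_G at 90.7 CPM and anti-LIF tumour KPCL-PCC_310_GA at 86.3 CPM. Its log2 fold change was −0.50 ± 0.17 with an adjusted p of 0.0489, just under the threshold. The call was lost without IgG library KPCL-PCC_203_G (−0.42, adjusted p = 0.112), KPCL-PCC_343_G (−0.52, 0.0875), KPCL-PCC_345_G (−0.54, 0.0671) or KPCL-PCC_393_G (−0.51, 0.0832), and without anti-LIF library KPCL-PCC_354_GA (−0.53, 0.0760) or KPCL-PCC_391_GA (−0.50, 0.0890). Slc7a2, which supplies arginine in macrophages and liver, was more abundant (26.8 FPKM, against 9.55 FPKM for Slc7a1) and far more variable, at 128, 406, 365 and 284 CPM and 202, 317, 97.9 and 268 CPM. Its coefficient of variation was 41.5% within the IgG arm and 42.8% within the anti-LIF arm, and its log2 fold change of −0.42 ± 0.41 did not pass the test (adjusted p = 0.461). Slc7a4 (−0.36 ± 0.14, adjusted p = 0.0722) and Slc7a3 (−0.14 ± 0.27, adjusted p = 0.719) were lower in level than both.

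The Slc1 family holds the glutamate carriers and the 2 carriers of alanine, serine and cysteine, Slc1a4 and Slc1a5. All 5 tested members had log2 fold changes below 0 (median −0.34), and 1 was called. The lowest in level, Slc1a3, went above 0 without KPCL-PCC_345_G (0.043), KPCL-PCC_227_GA (0.017) or KPCL-PCC_391_GA (0.038), and the median was −0.56 without KPCL-PCC_393_G. Slc1a4 (chr11:20302180-20332713) was at 24.1, 20.9, 18.6 and 25.6 CPM with IgG and at 10.7, 10.5, 14.1 and 15.4 CPM with anti-LIF, with a clear gap between the arms. It fell from 22.3 ± 3.14 to 12.7 ± 2.47 CPM (log2 fold change −0.81 ± 0.17, adjusted p = 0.00861). Slc1a5, known as a major glutamine importer of tumour cells, was the more abundant of the pair at 15.9 FPKM and did not pass the test (−0.21 ± 0.22, adjusted p = 0.497). It was at 45.4, 72.3, 75.2 and 42.4 CPM and 39.1, 61.1, 57.8 and 45.3 CPM, and within each arm the tumours differed more than the arms did. The glutamate carriers Slc1a1, Slc1a2 and Slc1a3 were all below 1 FPKM, and none passed the test.

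In the Slc6 family, whose carriers run on sodium and chloride, 1 of 6 tested members fell and none rose. Slc6a9, the glycine carrier (chr4:117835258-117869305), had the lowest coefficient of variation of the called members within the IgG arm (4.20%). It was at 26.6, 24.2, 24.5 and 24.9 CPM in the IgG tumours and at 11.7, 14.6, 15.3 and 14.3 CPM in the anti-LIF tumours, a 1.79-fold difference with SDs of 1.05 and 1.55 CPM (log2 fold change −0.84 ± 0.11, adjusted p = 0.00313). Ccdc24 and Gm17114 on the other strand overlap its annotated exons, so that reads of the overlap cannot be told apart. The overlap is 1940 bases summed over the 2 genes, beside a counted transcript of 3256 bases. How it divides between them, and the reads of Gm17114, are not given here. Ccdc24 was at 98 reads over the IgG arm and 56 over the anti-LIF arm (log2 fold change −0.55 ± 0.31, adjusted p = 0.210).

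Slc6a6, the taurine carrier and by far the most abundant of the Slc6 members, was at 577, 738, 738 and 676 CPM with IgG and at 622, 533, 520 and 521 CPM with anti-LIF. The arms overlapped through IgG tumour KPCL-PCC_203_G and anti-LIF tumour KPCL-PCC_227_GA (log2 fold change −0.31 ± 0.12, adjusted p = 0.0657). As FPKM, which scales by the library total alone, the means were 92.0 ± 7.32 and 67.6 ± 1.62, and on that scale its log2(FPKM + 1) difference of −0.44 passed limma's test (adjusted p = 0.00540). It also passed as lower without anti-LIF library KPCL-PCC_227_GA (−0.38, adjusted p = 0.0343) and without IgG library KPCL-PCC_203_G (−0.39, adjusted p = 0.0378).

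The Slc38 family of sodium-coupled neutral carriers had 8 tested members, of which 1 rose and none fell (median log2 fold change 0.34). Slc38a10, a member whose substrates are less well described (chr11:120103951-120151351), was at 180, 179, 187 and 162 CPM with IgG and at 263, 217, 222 and 220 CPM with anti-LIF. The groups were apart although the change was small, at 1.30-fold (177 ± 10.7 to 230 ± 21.6 CPM; log2 fold change 0.38 ± 0.09, adjusted p = 0.0150). Its exons overlap Gm11769 on the other strand, whose reads cannot be told apart. The glutamine carriers Slc38a2 (70.8 ± 17.3 and 55.8 ± 6.42 FPKM, log2 fold change −0.21 ± 0.15, adjusted p = 0.312) and Slc38a1 (12.2 ± 1.41 and 12.7 ± 1.08 FPKM, 0.18 ± 0.09, adjusted p = 0.143) did not pass. Slc38a9, the lysosomal carrier that reports arginine to mTORC1, was at 3.11 FPKM and did not pass either (0.34 ± 0.17, adjusted p = 0.160). Slc38a6 (0.66 ± 0.24, adjusted p = 0.0595) and Slc38a3 (1.25 ± 0.48, adjusted p = 0.0721) were the members nearest above the threshold in this family.

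Among the proton-coupled Slc36 carriers 1 of 3 tested members rose. Slc36a1, which exports small neutral amino acids from the lysosome (chr11:55204340-55236330), was at 175, 188, 213 and 174 CPM with IgG and at 315, 220, 232 and 246 CPM with anti-LIF. IgG tumour KPCL-PCC_345_G came close to anti-LIF tumour KPCL-PCC_310_GA, and tumour KPCL-PCC_227_GA stood highest. The rise was 1.35-fold (187 ± 18.3 to 253 ± 42.7 CPM; log2 fold change 0.43 ± 0.13, adjusted p = 0.0322). This call was lost without IgG library KPCL-PCC_203_G (0.40, adjusted p = 0.0745), KPCL-PCC_343_G (0.44, 0.0744) or KPCL-PCC_393_G (0.40, 0.0809) and without anti-LIF library KPCL-PCC_391_GA (0.45, 0.0557). Its neighbour Slc36a2 was at 20.9, 19.3, 28.2 and 14.8 CPM and 48.1, 9.95, 9.21 and 13.8 CPM, so that tumour KPCL-PCC_227_GA alone set the anti-LIF mean and the coefficient of variation of 92.2% in that arm (log2 fold change −0.04 ± 0.52, adjusted p = 0.963). Slc36a4 was nearer the threshold (−0.42 ± 0.16, adjusted p = 0.0727). None of the 3 members of the Slc43 family, carriers of large neutral amino acids and, for Slc43a3, purine bases, passed the test; the most abundant, Slc43a2, had a log2 fold change of 0.18 ± 0.14 (adjusted p = 0.350).

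A set of low-level carriers varied widely between tumours within each arm. Slc6a19, Slc7a9 and Slc6a20a are carriers of the brush border of gut and kidney, and Slc7a15 is another light chain. Slc6a19 was at 0.573, 0.769, 4.10 and 2.22 CPM with IgG and at 0.128, 6.94, 2.29 and 1.21 CPM with anti-LIF. Slc7a9 was at 0.172, 0.165, 2.18 and 0.378 CPM and 0.128, 5.68, 1.85 and 0.806 CPM. In both, IgG tumour KPCL-PCC_345_G and anti-LIF tumour KPCL-PCC_310_GA were the highest of their arms and tumour KPCL-PCC_227_GA was the lowest of its arm. Slc6a20a (highest at 2.27 CPM) and Slc7a15 (3.00 CPM) were also highest in tumour KPCL-PCC_310_GA. For Slc7a9 the log2 fold change of 1.51 ± 1.06 was the highest of all tested members and did not pass the test (adjusted p = 0.302); for Slc6a19 it was 0.45 ± 0.93 (adjusted p = 0.735). Single libraries moved both: Slc7a9 was at 3.10 without KPCL-PCC_345_G (adjusted p = 0.0788) and at 0.35 without KPCL-PCC_310_GA, and Slc6a19 at 1.14 and −0.66.

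The 10 enterocyte markers, a list added after these values had been seen, were highest and lowest in the same anti-LIF tumours as Slc6a19 and Slc7a9. They held 0.00436%, 0.00698%, 0.0432% and 0.0123% of counts in the IgG libraries and 0.000539%, 0.0926%, 0.0215% and 0.0101% in the anti-LIF libraries, with KPCL-PCC_345_G and KPCL-PCC_310_GA the highest of each arm and KPCL-PCC_227_GA the lowest of all. None of the 9 tested enterocyte markers was called by edgeR, and none had an unadjusted p under 0.05. All 9 had log2 fold changes above 0 (median 1.24, from 0.24 to 2.24). None of the 10 was at 0 in all libraries. Their part in the carrier values was not tested. Libraries KPCL-PCC_345_G and KPCL-PCC_310_GA were also left out together, a comparison chosen after seeing the data. This fit called 5 members higher, the main 4 and Slc38a6, and the same 4 lower. The called share was then 23.7% of tested members and 22.6% of all tested genes. In this fit the members' share was thus not below that of all genes.

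**Figure D4:**
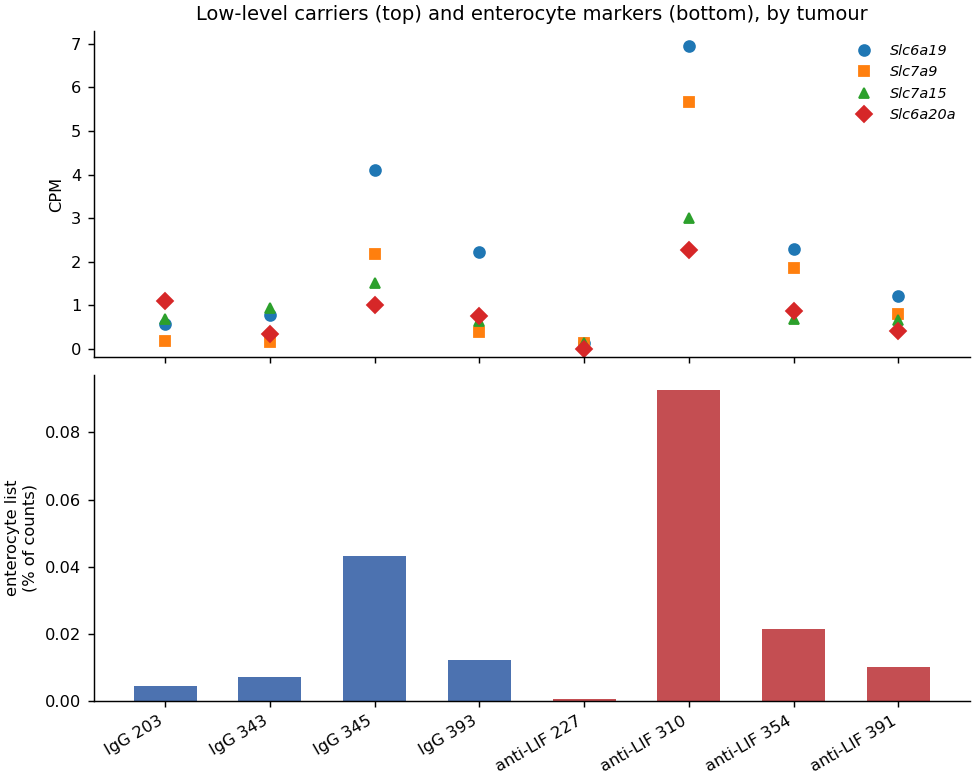
CPM of 4 low-level carriers in each tumour (upper panel, linear axis) and the percent of counts in the 10 enterocyte markers (lower panel, bars from 0), with the 4 IgG tumours on the left and the 4 anti-LIF tumours on the right. IgG tumour KPCL-PCC_345_G and anti-LIF tumour KPCL-PCC_310_GA carry the highest values of their arm for Slc6a19 and Slc7a9 (4.10 and 6.94 CPM for Slc6a19), as they do for the markers, and tumour KPCL-PCC_227_GA the lowest.

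The 26 members that were not tested had at most 62 reads over the 8 libraries (Slc7a14) and at most 0.157 FPKM, and 23 of them had at least 1 read. Many are neurotransmitter carriers: over the 4 IgG and 4 anti-LIF libraries, the noradrenaline carrier Slc6a2 had 44 and 10 reads, and the dopamine carrier Slc6a3 had 3 and 0. Slc38a5, a glutamine carrier known from acinar cells, had 8 reads in the IgG arm (4, 0, 2 and 2) and 40 in the anti-LIF arm (9, 9, 18 and 4). Slc7a13, a light chain of the kidney, had 0 reads in the IgG arm and 11 in the anti-LIF arm (5, 1, 3 and 2). With no filter on low counts, these 2 were the only ones of the 26 that passed edgeR's test, both as higher. Adjusted p was 0.0293 for Slc38a5 and 0.0255 for Slc7a13, on the few reads given. That fit called 22.4% of all 19906 tested genes and 14.8% of the 61 tested members. Acinar markers were higher in the anti-LIF libraries, as given above, and their part in these reads was not tested.

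The genes around the carriers were described from 4 lists: the amino acid response driven by ATF4, amino acid sensing by mTORC1, amino acid metabolism and other amino acid carriers. They name 132 genes, of which 128 were in the table and 120 were tested. edgeR called 14 higher and 10 lower (20% of 120, against 32.2% of all genes), with a median log2 fold change of 0.036. These counts moved with single libraries, as did the calls over all genes. Without IgG library KPCL-PCC_343_G they were 5 higher and 6 lower, with 20% of all tested genes called. Without KPCL-PCC_345_G there were 9 higher (25.4% of all genes called), and without KPCL-PCC_393_G there were 8 higher (23.4%). Without anti-LIF library KPCL-PCC_354_GA there were 9 higher (21.8%).

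The amino acid response list was split, with 4 of 34 higher, 4 lower and a median of 0.076 (23.5% called, against 32.2% of all tested genes). Trib3, a pseudokinase induced by ATF4, fell from 12.9 ± 3.18 to 7.03 ± 1.20 CPM, and the arms did not overlap (log2 fold change −0.87 ± 0.20, adjusted p = 0.0138). Ddit4, an inhibitor of mTORC1 induced by stress, fell from 205 ± 54.8 to 91.9 ± 36.5 CPM (−1.16 ± 0.29, adjusted p = 0.0172; 0.0502 without IgG library KPCL-PCC_343_G). The glycyl-tRNA synthetase Gars fell too (−0.41 ± 0.10, adjusted p = 0.0161), while Gpt2, the mitochondrial alanine transaminase, rose from 29.8 ± 5.17 to 53.6 ± 16.2 CPM (0.84 ± 0.21, adjusted p = 0.0166; 0.0512 without IgG library KPCL-PCC_343_G). Psph, of serine synthesis, fell, and Aldh18a1, of proline synthesis, and the tRNA synthetases Yars and Iars rose, and these 4 passed in only 8 to 12 of the 19 alternatives tried. Atf4 itself had a log2 fold change of −0.12 ± 0.13 (adjusted p = 0.522), and Asns, a standard target, had −0.20 ± 0.16 (adjusted p = 0.352).

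In the list of mTORC1 amino acid sensing 7 of 39 rose and 2 fell, with a median of 0.031. The called share was 23.1%, below the 32.2% of all tested genes (15.7% higher and 16.5% lower). Sesn1, a leucine-binding inhibitor of the pathway and a target of p53, was at 33.7, 30.6, 39.5 and 29.5 CPM with IgG and at 184, 62.3, 94.1 and 84.6 CPM with anti-LIF. Every anti-LIF tumour was above every IgG tumour, and tumour KPCL-PCC_227_GA stood far above the rest (log2 fold change 1.67 ± 0.31, adjusted p = 0.00626). Lamtor2 (0.44 ± 0.09, adjusted p = 0.00815) and Lamtor5 (0.44 ± 0.10, adjusted p = 0.0105), subunits of the lysosomal scaffold Ragulator, and Kptn, of the KICSTOR complex (0.57 ± 0.13, adjusted p = 0.0142), rose by smaller amounts. Rptor, the substrate-recruiting subunit of mTORC1 (−0.36 ± 0.09, adjusted p = 0.0174), and Fnip2 (−0.40 ± 0.10, adjusted p = 0.0189) fell, and Mtor had −0.07 ± 0.07 (adjusted p = 0.481).

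In the metabolism list 2 of 29 rose and 4 fell, with a median of 0.0068 (20.7% called, against 32.2% of all tested genes). Gldc, the decarboxylase of the glycine cleavage system, fell from a mean of 15.4 to one of 5.68 CPM (log2 fold change −1.44 ± 0.34, adjusted p = 0.0148), and Gclc, the catalytic subunit of the first enzyme of glutathione synthesis, from 94.8 ± 18.7 to 58.0 ± 9.75 CPM (−0.71 ± 0.16, adjusted p = 0.0135). Oat, ornithine aminotransferase, rose (0.39 ± 0.08, adjusted p = 0.0102), and Gpt2 is the other gene of this list that rose. Got1 (−0.45 ± 0.14, adjusted p = 0.0375) and Bckdha (−0.38 ± 0.11, adjusted p = 0.0315) fell, and they passed in 12 and 14 of the 19 alternatives. Of 21 tested carriers outside the 7 families 2 rose and none fell (9.52%, median 0.12): Slc16a10, an aromatic amino acid carrier (0.71 ± 0.18, adjusted p = 0.0208), and Pqlc2, the lysosomal exporter of cationic amino acids (0.54 ± 0.16, adjusted p = 0.0352), which passed in 16 and 9 of the 19 alternatives.

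**Figure D5:**
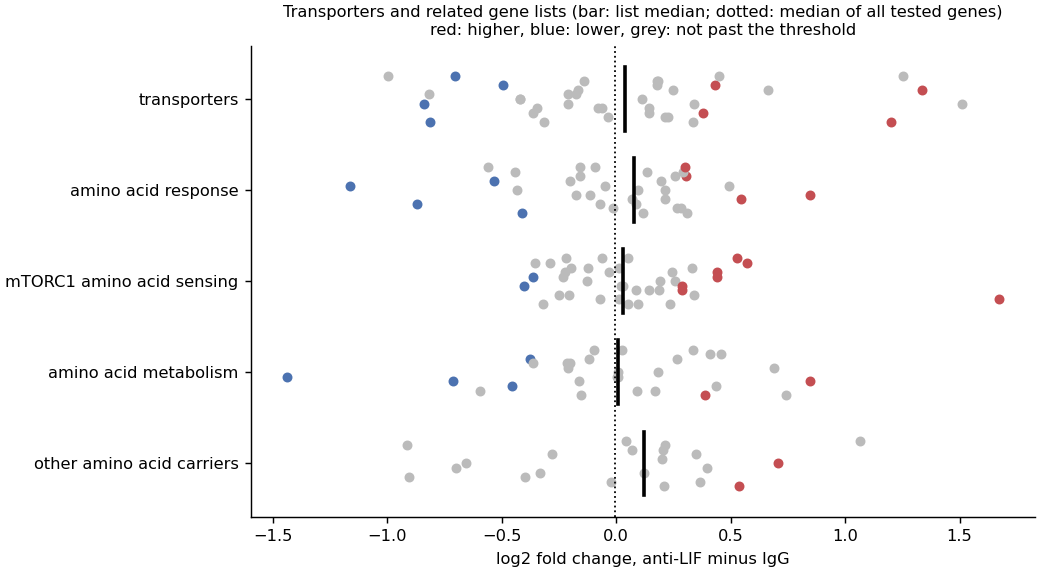
Log2 fold change (anti-LIF minus IgG) of each tested gene in the members and the 4 related lists, 1 point per gene, with called genes in red (higher) or blue (lower), a bar at the list's median and a dotted line at the median of all tested genes. The called genes fall on both sides of 0 except among the other carriers, where 2 are called higher and none lower.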

How the data were processed

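Per the submitters' processing notes, reads were checked with FastQC 0.11.2 and aligned to mm10 with STAR 2.4.0k, and edgeR 3.6.8 is named for the authors' comparison, not used here. Per the file headers, HOMER counted reads in exons with 1 transcript kept per gene. The HOMER and annotation versions, the strand setting and any read filter were not given in the sources used here. Raw counts make up the deposited table of 24537 genes, and the deposited FPKM table holds reads scaled by transcript length and the header's library total (18954525 to 24681702 reads). Of 168000 deposited FPKM values, 167977 equalled count, length and total recombined within 0.002 FPKM. FPKM printed here were computed in that way, because 52 of the 64 members had the same transcript in both tables. The alternatives tested on log2(FPKM + 1) and log2(FPKM + 0.1) used the deposited FPKM values. For the called members Slc7a7, Slc38a10 and Slc7a1 these belong to another transcript than the counts. There were 0 unused columns and 0 unnamed genes. Without molecular identifiers, limits from 0 reads cover counting error alone.

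Counts were fitted in R 4.3.3 with edgeR 4.0.16: filterByExpr at its defaults (14711 genes), TMM scaling, the quasi-likelihood test of 4 anti-LIF against 4 IgG libraries without covariates, and Benjamini-Hochberg adjustment over all tested genes at 0.05. SE is the log2 fold change divided by the square root of F. CPM use the TMM library size. The test was tried on simulated data. It recovered 5.97% of the genes changed 1.5-fold, 55.2% of those changed 2-fold and 83.3% of those changed 4-fold. Of its 100 calls, 4 were false. The data themselves gave 4731 calls, so these shares do not carry over directly. Alternatives used DESeq2 1.42.0, limma 3.58.1 on log2(FPKM + 1) and log2(FPKM + 0.1), other scalings and filters, and each library left out. Coordinates are 1-based, and exon overlaps were taken from GENCODE M21.

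The members, the 4 pathway lists and the marker lists were chosen with earlier results of these data known. Named members were those past the threshold, the 10 highest by FPKM, the heterodimer pairs, Slc38a9 and the glutamine and cationic carriers. From each pathway list up to 4 genes in each direction with the lowest p were named. Other genes named (among them Slc6a19, Slc36a2, Slc38a3, Slc38a5, Slc38a6, Slc7a13, Atf4, Asns and Mtor) were picked after their values were seen, as was the enterocyte list. Markers were summed as percent of counts. One further allele of the mice's genotype and values of single genes among the lists are not reported here.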

Additional observations from a re-analysis of the deposited data

Results flagged for a closer look

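In each arm of 4 tumours, the highest and the lowest CPM of each tested member were compared with the rest of the arm by Dixon's ratio, the gap to the next tumour over the range, against its critical value for 4 samples. Of 76 such groups, 9 held a tumour that stood apart. The critical value is passed by chance in about 1 in 20 groups of normally distributed values. The groups share the same 8 libraries and are not independent, so an excess was not tested. Anti-LIF tumour KPCL-PCC_227_GA was high in 4 of them: Slc36a2 (48.1 CPM, the others 9.21 to 13.8), Slc38a10 (263 CPM, the others 217 to 222), Slc38a6 (110 CPM, the others 52.7 to 62.1) and Slc6a6 (622 CPM, the others 520 to 533). Tumour KPCL-PCC_227_GA also had the lowest epithelial marker share (0.207%) and the highest myeloid share (5.07%), whose part in these values was not tested. Anti-LIF tumour KPCL-PCC_310_GA was high for Slc3a1 (8.21 CPM, the others 4.14 to 4.66) and IgG tumour KPCL-PCC_345_G for Slc7a9 (2.18 CPM, the others 0.165 to 0.378). These are the tumours with the highest enterocyte marker shares of their arms. Anti-LIF tumour KPCL-PCC_354_GA was high for Slc43a1 (1.05 CPM, the others 0.668 to 0.702), at 17 reads against 10 to 11. IgG tumour KPCL-PCC_203_G was high for Slc38a3 (5.16 CPM, the others 2.08 to 2.58). IgG tumour KPCL-PCC_343_G was low for Slc38a4 (3.95 CPM, the others 4.43 to 4.47), at 72 reads against 78 to 88.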

How the results depend on the processing

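Of the 8 called members, 6 (Slc7a7, Slc7a8, Slc38a10, Slc6a9, Slc1a4 and Slc7a6) passed in the same direction in each of the 19 alternatives; Slc36a1 passed in 14 and Slc7a1 in 10. Besides the single libraries named with them, Slc36a1 was lost with scaling by library size alone (0.27, edgeR adjusted p = 0.0611), and Slc7a1 with relative log expression scaling (−0.49, 0.0502), upper quartile scaling (−0.52, 0.0538) and no filter on counts (−0.49, 0.0537). Slc6a6 passed as lower in 7 alternatives. Members called higher were 4 and with DESeq2 7, which added Slc38a3, Slc38a5 and Slc38a6. DESeq2 called 24% of 50 tested members and 34.1% of all tested genes. Members called lower were 4, and 7 with library size alone, with log2(FPKM + 1) and with log2(FPKM + 0.1). The called shares of members in these settings were 26.3%, 28.9% and 28.9%, against 34%, 33.7% and 33.2% of all tested genes. These 3 settings scale by library totals and shifted the median over all genes by −0.16, −0.12 and −0.13. Of all calls, 48.7% were higher in the fit reported, 28.6% with library size alone, and 31.3% and 31.5% with the 2 FPKM settings. Leaving out 1 library gave 3 to 6 members higher and 3 to 6 lower, and 5 to 12 pathway genes higher and 6 to 10 lower. Those fits called 15.4% to 25.6% of tested members and 20% to 29.2% of all tested genes. Pathway genes called, 14 higher and 10 lower, became 4 and 22 with library size alone and 7 and 20 with either FPKM setting. They became 6 and 6 with IgG KPCL-PCC_345_G and anti-LIF KPCL-PCC_310_GA both left out, an alternative chosen after seeing the data. Slc3a1 changed sign with log2(FPKM + 0.1) (−0.00060), without anti-LIF KPCL-PCC_310_GA (−0.095) and with both libraries left out (−0.027), and ran from −0.095 to 0.29 with 1 library left out. In all, 12 of the 38 tested members changed sign in at least 1 alternative, none of them called. Among them were Slc6a19 (−0.66 without KPCL-PCC_310_GA), Slc7a3 and Slc1a3. The cause of these moves was not tested, and fits with fewer libraries have less power by construction. No paired analysis was possible because the arms share no mouse number. Depth limits the 26 untested members, of which none had over 62 reads.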
